A study of Mus musculus with 14 samples.

Results

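Ier2, Ier3, Ier5, Ier5l, Csrnp1, Tiparp, Pnrc1, Otud1 and Fbxo33 are 9 genes known, or related to genes known, for a fast transcriptional response to stimuli. They were taken by symbol from the 45802 features of an expression table of mouse cortical neuron cultures, and each had a value in all 14 libraries. RNA was sequenced from ribosome-depleted libraries of wild-type C57BL/6 primary cultures at 12 days in vitro, after a treatment of 1 h in 5 groups. Bicuculline (20 µM, 3 libraries) blocks GABA-A receptors and so raises activity of the network. NMP peptides (4% by volume, 3 libraries) are purified peptides that the proteasome of the neuronal membrane, or NMP, gives off. NMP peptides plus APV (3 libraries) adds 100 µM APV, which blocks NMDA receptors, to the same peptides. For PK-cleaved NMP peptides (4% by volume, 3 libraries), proteinase K had digested the peptides beforehand. DMSO at 1% served as the control, with 2 libraries labelled replicates 2 and 3. A DMSO content is stated for that group only, so solvent and treatment cannot be told apart in comparisons with it.

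Immediate-early genes are transcribed within minutes of a stimulus from transcription factors already present in the cell, with no need for new protein synthesis. In neurons the stimulus is often calcium entry through NMDA receptors and voltage-gated channels, which activates CREB, serum response factor and related factors at the promoters. The best known products are themselves transcription factors such as Fos and Egr1, whereas most of the genes described here encode regulators of other kinds. Ier2 encodes a small nuclear protein, and Ier3 a regulator of survival and NF-κB signalling. Ier5, in human cells, brings the phosphatase PP2A to heat shock factor HSF1, and Ier5l is its sequence relative. Csrnp1 encodes a nuclear cysteine- and serine-rich protein that activates transcription, and Pnrc1 a nuclear receptor coactivator that binds the mRNA decapping enzyme in human cells. Tiparp is a mono-ADP-ribosyltransferase that restrains the aryl hydrocarbon receptor (AHR), Otud1 a deubiquitinase, and Fbxo33 the substrate-binding F-box subunit of an SCF ubiquitin ligase.

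Values are quantile-normalised log2 signals as the authors deposited them, and how many reads support them is unknown. Levels of different genes are compared only on the antilogged signal, which behaves as a value per exon length. Markers of neurons (5 of 5), excitatory neurons (6 of 6), inhibitory neurons (7 of 7) and astrocytes (8 of 8) had a value in every library, as did 7 of 8 oligodendrocyte lineage markers. Summed antilogged signals were 895 to 1210 for neuron markers and 0.545 to 0.901 for microglia markers. In 4 libraries Gfap, an astrocyte gene, lay between 3.97 and 4.18 log2 units, against at most 3.47 in the other 10. They were bicuculline replicate 2, NMP peptides replicate 3, PK-cleaved NMP peptides replicate 3 and DMSO replicate 2. Of the 9 genes, 7 had their lowest bicuculline value in replicate 2 and 6 had their lowest NMP peptide value in replicate 3. The shares of all tested genes that were lowest in those libraries were not computed. PK-cleaved NMP peptides replicate 3 was the lowest of its group for 3 genes and the highest for 3, and DMSO replicate 2 was the lowest for 4 and the highest for 5. How many of the 9 genes were called is also given without the 4 libraries with high Gfap. Gfap is 1 of the 8 astrocyte markers, and the sum over all 8 need not follow it. In DMSO that sum was 293 to 296, with Gfap at 4.13 in replicate 2 and 2.68 in replicate 3. The part of astrocyte content in these values was not tested.

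The 9 genes lie on 8 chromosomes of GRCm38.p6, so only Ier5l and Otud1 share one. Ier2 is on chromosome 8 (84661331 to 84662852, minus strand), Ier3 on chromosome 17 (35821713 to 35822911, plus strand) and Ier5 on chromosome 1 (155096367 to 155099636, minus strand). Ier5l (30472631 to 30474199, minus strand) and Otud1 (19657731 to 19661279, plus strand) are on chromosome 2. Csrnp1 is on chromosome 9 (119971163 to 119984742, minus strand), Tiparp on chromosome 3 (65528447 to 65555518, plus strand), Pnrc1 on chromosome 4 (33245423 to 33248787, minus strand) and Fbxo33 on chromosome 12 (59200655 to 59221961, minus strand). Exons of Csrnp1 overlap the antisense gene 1700019L13Rik, not analysed here, over 224 bases, and exons of Tiparp overlap 4931440P22Rik on the opposite strand over 223 bases. The table lists 4931440P22Rik with no value in any library. Whether reads were assigned by strand is not given in the sources used here, so reads of each overlapping stretch cannot be told apart.

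Promoter sequence is shown so that the elements of activity- and stress-responsive promoters can be looked for in it. It is given for Tiparp, Otud1 and Pnrc1, which rose with bicuculline against DMSO, and for Csrnp1 and Ier3, not called there, whose windows held an AP-1 or NF-κB site. RefSeq windows on GRCm38.p6, from 250 bases before to 50 bases after each start, were found for 8 of the 9 genes, all but Ier2 (11 windows, 4 of them for Csrnp1). Fbxo33 also rose, but the stretch before its start lies in an annotated exon of the gene and is not printed. Both strands were searched for the CArG box of serum response factor, the cyclic AMP response element TGACGTCA (CRE) and its core TGACG, the AP-1 site TGANTCA, the core GCGTG of the AHR element, and the NF-κB site. The CRE contains TGACG, and no other motif searched contains another. Capitals below mark any match. Each stretch runs 5′ to 3′ from 180 bases before the start, cut short where an annotated exon of the gene begins. The Csrnp1 stretches shown lie inside the gene (119971163 to 119984742, minus strand), downstream of its starts 1 and 2.
Tiparp (chr3:65528267-65528409, plus strand): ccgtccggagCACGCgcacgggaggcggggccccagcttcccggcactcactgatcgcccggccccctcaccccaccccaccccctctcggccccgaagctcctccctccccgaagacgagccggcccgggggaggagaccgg
Otud1 (chr2:19657551-19657730, plus strand): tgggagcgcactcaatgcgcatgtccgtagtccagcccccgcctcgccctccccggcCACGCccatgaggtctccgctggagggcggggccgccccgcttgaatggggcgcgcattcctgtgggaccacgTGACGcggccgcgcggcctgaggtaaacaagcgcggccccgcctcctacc
Csrnp1, start 3 (chr9:119983780-119983959, minus strand): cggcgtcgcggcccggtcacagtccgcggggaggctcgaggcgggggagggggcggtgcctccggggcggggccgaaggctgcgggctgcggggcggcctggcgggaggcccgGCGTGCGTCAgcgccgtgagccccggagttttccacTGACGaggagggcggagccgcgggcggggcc
Csrnp1, start 4 (chr9:119983024-119983203, minus strand): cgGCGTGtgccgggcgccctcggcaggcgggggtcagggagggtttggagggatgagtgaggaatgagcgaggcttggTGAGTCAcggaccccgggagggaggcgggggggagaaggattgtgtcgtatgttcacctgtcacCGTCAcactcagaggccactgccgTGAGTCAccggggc
Ier3 (chr17:35821533-35821683, plus strand): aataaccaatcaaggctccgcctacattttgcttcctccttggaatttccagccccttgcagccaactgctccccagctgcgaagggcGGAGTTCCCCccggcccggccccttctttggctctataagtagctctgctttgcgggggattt
Pnrc1 (chr4:33248788-33248967, minus strand): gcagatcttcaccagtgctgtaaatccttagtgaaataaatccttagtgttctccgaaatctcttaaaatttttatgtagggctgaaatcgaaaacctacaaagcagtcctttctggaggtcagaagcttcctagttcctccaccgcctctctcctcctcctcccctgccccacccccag

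No window of the 8 genes held a CArG box or a full CRE, which 1.63% and 1.79% of all 32851 windows in the reference held. The Fbxo33 window (59219434 to 59219733) lies inside the gene, whose 5′ end on the minus strand is at 59221961. Sequence before that end was not searched, so the matches for Fbxo33 cover this inner window only. Each of the 4 Csrnp1 windows held TGACG, at 142 (start 1), 95 (start 2), 62 and 31 (start 3) or 38 bases (start 4) before its start, and Otud1 held one at 50 bases. These letters are common, with a match in 20.8% of all windows. AP-1 sites, in 7.81% of all windows, were found at Csrnp1 start 4 alone, where TGAGTCA stands at 102 and at 14 bases before the start. The AHR core was in 32.4% of all windows and in those of Tiparp, Otud1, Fbxo33, Ier5l and Csrnp1 starts 3 and 4. Ier3 held the single NF-κB match, at 92 bases before its start, against 4.51% of all windows. The windows of Ier5 and Pnrc1 held none of these motifs. A match is a run of letters and not a measured binding site.

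Levels without stimulation differed widely between the 9 genes. In DMSO the mean log2 value was 3.66 ± 0.22 for Pnrc1, 3.43 ± 0.18 for Ier2, 3.03 ± 0.04 for Tiparp and 2.36 ± 0.01 for Otud1 (SD, n = 2). Ier5 had 2.33 ± 0.13, Ier5l 1.94 ± 0.21 and Fbxo33 1.86 ± 0.16, and Ier3 (0.49 ± 0.13) and Csrnp1 (-1.06 ± 0.24) were lowest. On the antilogged scale these means run between 0.478 for Csrnp1 and 12.7 for Pnrc1. With bicuculline Ier2 had the highest antilogged mean of the 9, at 50.4, followed by Tiparp at 21.7 and Pnrc1 at 17.3. Csrnp1, with 34.9% of features below its mean over all libraries, did not pass the filter on low values that dropped the lowest 40%. The other 8 passed, also when the bicuculline libraries were left out of the ranking. Values of Csrnp1 below come from a fit without that filter.

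**Figure D1:**
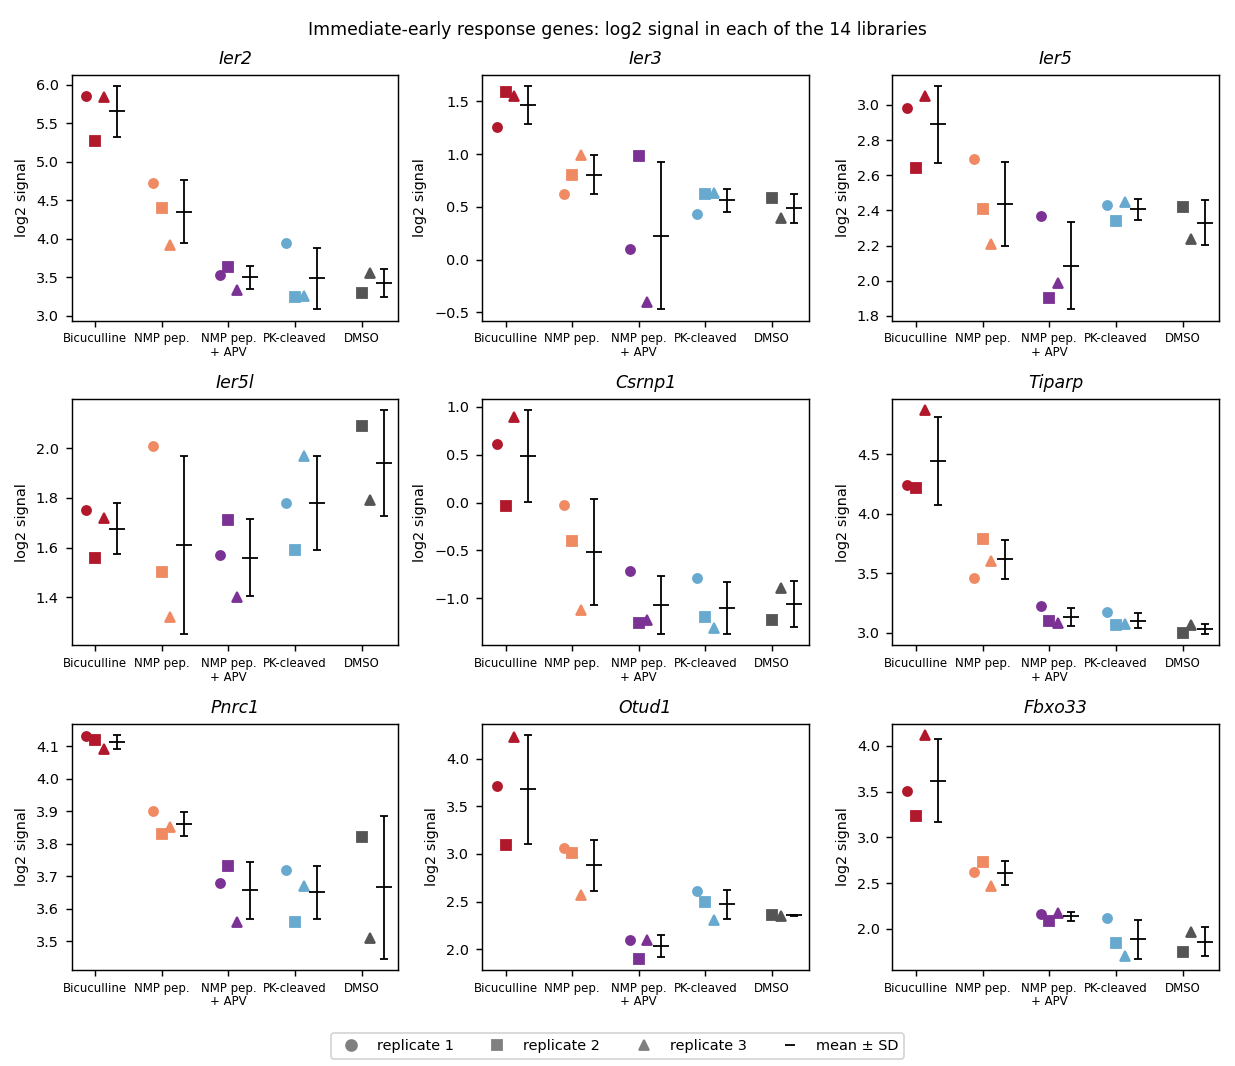
Log2 signal of each of the 9 genes (y axes, a separate scale per gene) in the 5 groups (x axis). Each point is 1 library, its shape gives the replicate number, and bars give the group mean ± SD (n = 3, or 2 for DMSO). For Ier2, Tiparp, Pnrc1 and Fbxo33 the bicuculline points stand above all others and the NMP peptide points above those of the 3 remaining groups, except that the lowest NMP peptide value of Ier2 (3.92) lies under the highest PK-cleaved one (3.95).

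Bicuculline was compared with DMSO to ask how raised network activity changes these mRNAs. It raised Ier2 4.67-fold, Fbxo33 3.39-fold, Tiparp 2.66-fold, Otud1 2.49-fold and Pnrc1 1.37-fold. Those are 5 of the 8 tested genes, called at an adjusted p under 0.05 by limma with Benjamini-Hochberg adjustment over 10877 genes, where 0.469% of all tested genes were called higher. None of the 8 was called lower. Their median log2 fold change was 1.15, against -0.03 over all tested genes. The 9 genes were chosen with earlier results of these data known, so this count and median are not independent of them. The bicuculline and DMSO libraries did not overlap for any of the 9 genes, with 8 higher and Ier5l lower. Over all tested genes 5.81% were without overlap and higher, and 12% were without overlap and lower. In cultures of mixed cells, a change in the number of cells of a type and a change in RNA per cell cannot be told apart.

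Ier2 had log2 values of 5.85, 5.27 and 5.84 with bicuculline, against 3.30 and 3.56 with DMSO. It showed the widest shift of the 9 genes in this comparison, by 2.22 log2 units (SE 0.24, limma adjusted p = 0.000211), and even the lowest bicuculline library stood well clear of DMSO. Ier3, whose product acts on cell survival, had 1.26, 1.59 and 1.55 with bicuculline and 0.58 and 0.39 with DMSO. The groups were apart, but the log2 difference of 0.98 (SE 0.28) did not pass over all genes (limma adjusted p = 0.406). Ier5 had 2.98, 2.64 and 3.05 with bicuculline against 2.42 and 2.24 with DMSO, a difference of 0.56 (SE 0.16) that also missed the threshold (limma adjusted p = 0.436). Ier5l, the sequence relative of Ier5, had 1.75, 1.56 and 1.72 with bicuculline and 2.09 and 1.79 with DMSO. Its difference was -0.26 (95% interval -0.65 to 0.13), so an increase like that of Ier2 lies outside the interval.

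Csrnp1, the transcription-linked nuclear protein gene, had 0.61, -0.04 and 0.89 with bicuculline and -1.23 and -0.89 with DMSO. All 3 bicuculline libraries were above both DMSO libraries, and the log2 difference of 1.55 (SE 0.33) was the third largest, yet it lay outside the threshold in the unfiltered fit (limma adjusted p = 0.0713). Pnrc1, the coactivator and decapping partner, had 4.13, 4.12 and 4.09 with bicuculline and 3.82 and 3.51 with DMSO. The bicuculline libraries were within 0.05 log2 units of each other, and the small difference of 0.45 (SE 0.09) passed (limma adjusted p = 0.0432).

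The enzymes and the ligase subunit all rose. Tiparp had 4.24, 4.22 and 4.87 with bicuculline, against 3.00 and 3.06 with DMSO, a log2 difference of 1.41 (SE 0.16, limma adjusted p = 0.000211). Otud1 had 3.71, 3.09 and 4.23 with bicuculline, against 2.36 and 2.35 with DMSO. Its bicuculline libraries were the most spread of the 9 genes, and the difference was 1.32 (SE 0.24, limma adjusted p = 0.0169). Fbxo33 had 3.51, 3.23 and 4.12 with bicuculline, against 1.75 and 1.97 with DMSO, a difference of 1.76 (SE 0.20, limma adjusted p = 0.000221). For all 3 genes replicate 3 was the highest bicuculline library.

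The calls of Ier2, Tiparp and Fbxo33 held in every alternative in which the gene was tested, and those of Otud1 and Pnrc1 in 9 and 5 of 14. The count was 3 (Ier2, Tiparp and Fbxo33) without bicuculline replicate 1, without DMSO replicate 3 and in a fit restricted to these groups, and 4 without the 4 libraries with high Gfap, where Pnrc1 was not called.

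**Figure D2:**
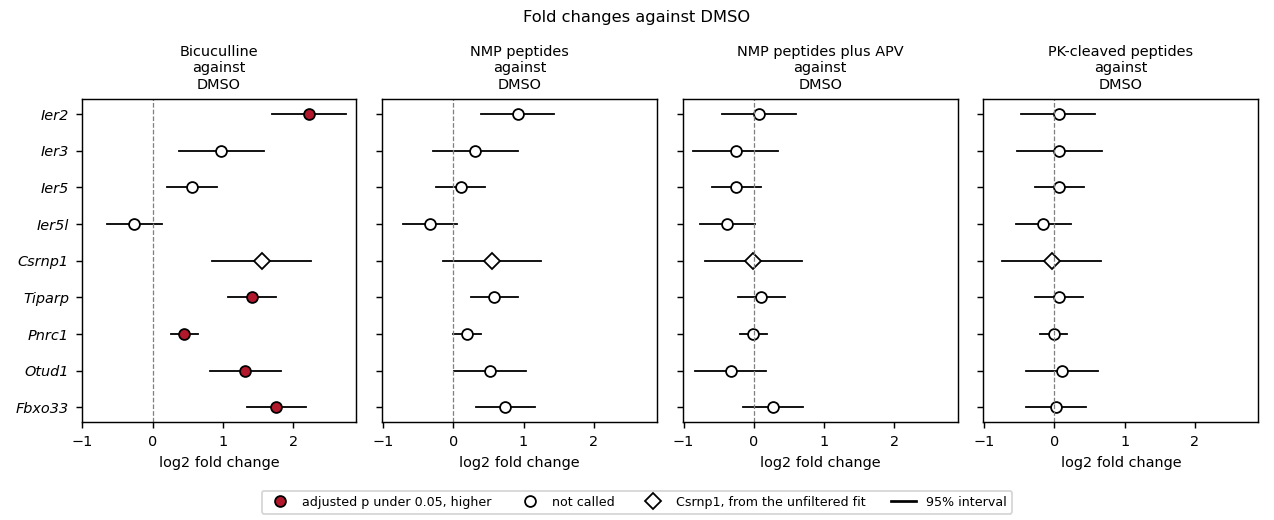
Log2 fold change of each gene against DMSO (x axis) in bicuculline, NMP peptide, NMP peptide plus APV and PK-cleaved NMP peptide cultures (panels). Lines are 95% intervals of the limma fit, filled symbols mark an adjusted p under 0.05, and the diamond marks Csrnp1, taken from the unfiltered fit. The 5 filled symbols are all in the bicuculline panel, and in the APV and PK-cleaved panels every interval reaches 0.

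PK-cleaved NMP peptides gave a control with 3 libraries for the same question. Bicuculline against PK-cleaved NMP peptides called the same 5 genes higher and none lower, where 0.533% of all tested genes were called higher. The log2 differences were 2.17 (SE 0.22) for Ier2, 1.74 (SE 0.18) for Fbxo33, 1.34 (SE 0.14) for Tiparp, 1.21 (SE 0.21) for Otud1 and 0.46 (SE 0.08) for Pnrc1. Csrnp1 was called as well in the unfiltered fit, by 1.59 (SE 0.29, limma adjusted p = 0.0204), where 0.445% of genes were called higher. Csrnp1 was not refitted under the alternatives, so how this call depends on single libraries or on the fit was not tested. Its values were 0.61, -0.04 and 0.89 with bicuculline, against -0.79, -1.20 and -1.31 with PK-cleaved NMP peptides. The groups did not overlap and bicuculline was higher for 8 of the 9 genes (4.16% of all tested genes), with Ier5l as the exception. Ier3 (0.91, SE 0.25) and Ier5 (0.48, SE 0.15) were again above 0 and not called (limma adjusted p = 0.29 and 0.441). This comparison shares the bicuculline libraries with the one against DMSO. The count fell to 3 (Ier2, Tiparp and Fbxo33) without bicuculline replicate 1 and without either replicate 2 or replicate 3 of the PK-cleaved peptides, and it was 4 without the 4 libraries with high Gfap.

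The next comparison, NMP peptides against DMSO, asks whether the peptides act on these mRNAs. Of the 8 tested genes 0 were called, where limma called 2 genes (0.0184% of all tested genes) higher, and 220 genes had an unadjusted p under 0.05. Among those 220 were 5 of the 8: Ier2, Fbxo33, Tiparp, Otud1 and Pnrc1, the same 5 that bicuculline raised. Both comparisons use the DMSO libraries. The median log2 fold change of the 8 genes was 0.42, against -0.04 over all tested genes. NMP peptide libraries were all above the DMSO libraries for 6 of the 9 genes, against 4.28% of all tested genes.

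Ier2 had log2 values of 4.73, 4.40 and 3.92 with NMP peptides, against 3.30 and 3.56 with DMSO. The difference was 0.92 (SE 0.24, 95% interval 0.39 to 1.44, limma adjusted p = 0.966), and replicate 3, one of the libraries with high Gfap, was the nearest to DMSO. Tiparp had 3.46, 3.79 and 3.60 with NMP peptides, against 3.00 and 3.06 with DMSO, a difference of 0.58 (SE 0.16, limma adjusted p = 0.971). Fbxo33 had 2.62, 2.73 and 2.47 with NMP peptides, against 1.75 and 1.97 with DMSO, a difference of 0.74 (SE 0.20, limma adjusted p = 0.966). In each of these genes the groups were apart, with differences smaller than those with bicuculline.

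Otud1 had 3.06, 3.01 and 2.57 with NMP peptides, against 2.36 and 2.35 with DMSO (difference 0.52, SE 0.24). Pnrc1 had 3.9, 3.83 and 3.85 with NMP peptides, against 3.82 and 3.51 with DMSO (0.20, SE 0.09), where one DMSO library all but reached the peptide values. Ier3 had 0.62, 0.80 and 0.99 with NMP peptides and 0.58 and 0.39 with DMSO. The other genes overlapped: Csrnp1 had -0.03, -0.40 and -1.12 with NMP peptides, so that replicate 3 lay among the DMSO values, and Ier5 (0.11, SE 0.16) and Ier5l (-0.33, SE 0.18) had differences of opposite sign. None of the 8 tested genes was called without the 4 libraries with high Gfap.

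Intact peptides were set against PK-cleaved NMP peptides, a control in which the peptides are digested. Of the 8 tested genes 0 were called by limma, where 0.0827% of all tested genes were called higher and 179 had an unadjusted p under 0.05, with Ier2, Fbxo33, Tiparp and Pnrc1 among them. Ier2 had 4.73, 4.40 and 3.92 with NMP peptides, against 3.95, 3.25 and 3.26 with PK-cleaved NMP peptides, a log2 difference of 0.86 (SE 0.22, limma adjusted p = 0.73). Fbxo33 had 2.62, 2.73 and 2.47 with NMP peptides, against 2.12, 1.84 and 1.70 with PK-cleaved NMP peptides (0.72, SE 0.18, limma adjusted p = 0.622). Tiparp had 3.46, 3.79 and 3.60 with NMP peptides, against 3.17, 3.06 and 3.07 with PK-cleaved NMP peptides (0.52, SE 0.14). The groups were apart for Tiparp, Pnrc1 and Fbxo33, 3 of the 9 genes, against 2.48% of all tested genes. For Ier2 the highest PK-cleaved library, replicate 1, passed the lowest peptide library, replicate 3, while within each replicate number the peptide library was the higher.

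Libraries of these groups that carry the same replicate number deviated together over all genes. With the replicate block in a fit restricted to these groups, 2 of the 8 genes were called. They were Ier2 (limma adjusted p = 0.0207) and Fbxo33 (limma adjusted p = 0.0433). With the block over all 14 libraries 0 were called. The share of all tested genes called with the block is not given here, and the 0.0827% above is from the main fit. Over the alternatives the adjusted p ran between 0.0207 and 1 for Ier2 and between 0.0433 and 1 for Fbxo33. Without the 4 libraries with high Gfap 0 were called.

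The peptides with APV were set against PK-cleaved NMP peptides and against DMSO to ask what is left when NMDA receptors are blocked. APV without peptides was not analysed here, so effects of APV and of its action on the peptide response cannot be told apart. Against PK-cleaved NMP peptides 0 of the 8 genes were called by limma, where 0.607% of all tested genes were called higher and 0.781% lower. Over all tested genes 1701 had an unadjusted p under 0.05, and of the 8 only Ier5 was among them (-0.32, SE 0.15, limma adjusted p = 0.305). The log2 difference was 0.01 (95% interval -0.45 to 0.48) for Ier2, 0.04 (-0.26 to 0.34) for Tiparp and 0.00 (-0.17 to 0.18) for Pnrc1. Fbxo33 had a difference of 0.25 (-0.13 to 0.63), so these intervals include 0. Otud1 had 2.10, 1.90 and 2.10 with NMP peptides plus APV, against 2.61, 2.49 and 2.31 with PK-cleaved NMP peptides. It was the only one of the 9 genes without overlap (-0.44, SE 0.21, limma adjusted p = 0.339), and 11.4% of all tested genes were without overlap and lower.

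Against DMSO, NMP peptides plus APV gave 0 calls among the 8 genes with limma, where 0.175% of all tested genes were called higher and 0.45% lower. Of the 8 none had an unadjusted p under 0.05, a level that 1252 tested genes reached. Ier2 had 3.53, 3.63 and 3.34 with NMP peptides plus APV, against 3.30 and 3.56 with DMSO, and Tiparp had 3.22, 3.10 and 3.08 with NMP peptides plus APV, against 3.00 and 3.06 with DMSO. Fbxo33 had 2.16, 2.08 and 2.17 with NMP peptides plus APV, against 1.75 and 1.97 with DMSO. Tiparp and Fbxo33 were without overlap and higher (8.86% of all tested genes), and Ier5l and Otud1 without overlap and lower (21%). None of the 8 was called in either comparison without the 4 libraries with high Gfap.

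PK-cleaved NMP peptides against DMSO, a comparison of the controls, called 0 of the 8 genes with limma, and 0% of all tested genes. Of the 8 none had an unadjusted p under 0.05, against 114 over all tested genes. Differences ran between -0.16 for Ier5l and 0.11 for Otud1, with a median of 0.06 (-0.04 over all tested genes). Only Tiparp was without overlap, by less than 0.01 log2 units, where 1.88% of all tested genes were without overlap and higher. The 95% interval was -0.47 to 0.58 for Ier2 and -0.27 to 0.40 for Tiparp. These bounds stay below the bicuculline differences of both genes.

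The peptides alone were then compared with the peptides plus APV. Of the 8 genes 0 were called by limma at an adjusted p under 0.05, where 0.883% of all tested genes were called higher and 0.552% lower, and 1723 had an unadjusted p under 0.05. All 8 differences were above 0, with a median of 0.48 (0.01 over all tested genes), and 7 of the 8 had an unadjusted p under 0.05, Ier5l being the exception. Otud1 had 3.06, 3.01 and 2.57 with NMP peptides, against 2.10, 1.90 and 2.10 with NMP peptides plus APV, a difference of 0.85 (SE 0.21) just outside the threshold (limma adjusted p = 0.07). Ier2 had 4.73, 4.40 and 3.92 with NMP peptides, against 3.53, 3.63 and 3.34 with NMP peptides plus APV, also a difference of 0.85 (SE 0.22, limma adjusted p = 0.0779). Both genes were without overlap, as were Tiparp (0.48, SE 0.14), Pnrc1 (0.20, SE 0.08) and Fbxo33 (0.47, SE 0.18), 5 of the 9 genes against 12.2% of all tested genes.

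Ier3 had 0.62, 0.80 and 0.99 with NMP peptides, against 0.10, 0.98 and -0.40 with NMP peptides plus APV, the widest spread that any of the 9 genes showed within a group. Ier5 had a difference of 0.35 (SE 0.15, limma adjusted p = 0.267), with overlap. The calls here depended on the fit: 4 genes (Ier2, Otud1, Tiparp and Fbxo33) with only these groups, 4 (Ier2, Otud1, Tiparp and Ier3) with array weights, and 2 (Ier2 and Otud1) without the 4 libraries with high Gfap. Leaving out NMP peptides replicate 3 called Ier2, and leaving out NMP peptides plus APV replicate 2 called Ier3. The shares of all tested genes called in these alternative fits are not given here, so these counts have no background beside them. Summed astrocyte markers were 260 to 306 with NMP peptides and 307 to 336 with NMP peptides plus APV (8 of 8 markers with a value in every library). Oligodendrocyte lineage markers were 121 to 140 with NMP peptides and 140 to 176 with NMP peptides plus APV (7 of 8). Inhibitory neuron markers were 501 to 587 with NMP peptides and 459 to 482 with NMP peptides plus APV (7 of 7). Their part in these results was not tested.

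**Figure D3:**
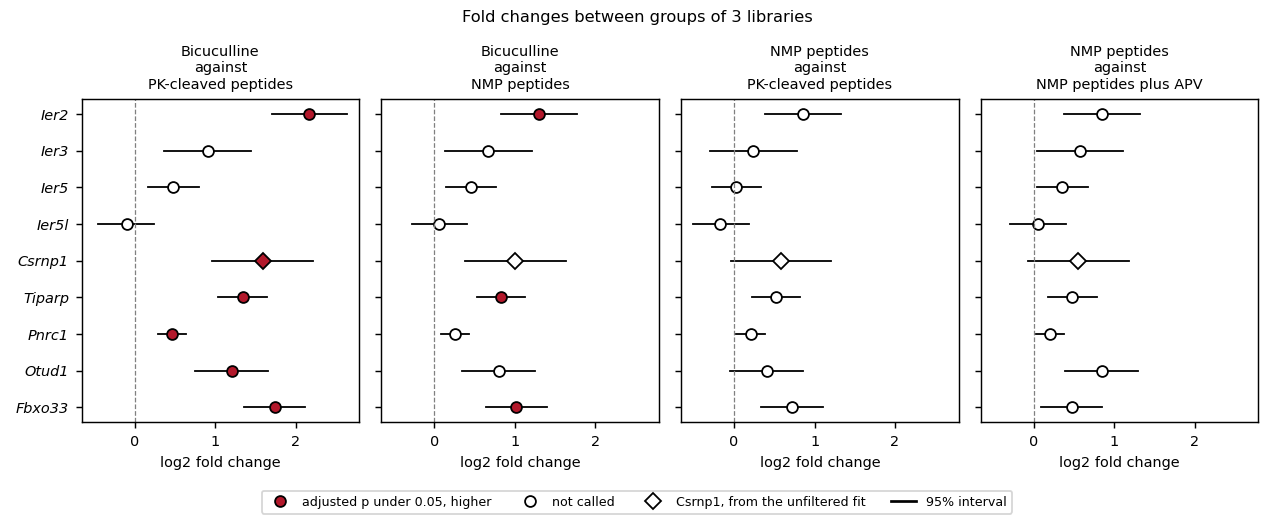
Log2 fold change of each gene (x axis) in 4 comparisons between groups of 3 libraries, with 95% intervals of the limma fit. Filled symbols mark an adjusted p under 0.05 and the diamond marks Csrnp1 from the unfiltered fit. Filled symbols stand in the 2 bicuculline panels only, for 6 genes against PK-cleaved NMP peptides and for Ier2, Tiparp and Fbxo33 against NMP peptides.

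Bicuculline and NMP peptides were compared directly. Bicuculline gave higher Ier2, Tiparp and Fbxo33, 3 of the 8 tested genes, where 0.175% of all tested genes were called higher, and none lower. Ier2 had 5.85, 5.27 and 5.84 with bicuculline, against 4.73, 4.40 and 3.92 with NMP peptides, a 2.47-fold difference (log2 1.30, SE 0.22, limma adjusted p = 0.0276). Tiparp was 1.77-fold higher with bicuculline (log2 0.83, SE 0.14, limma adjusted p = 0.0278) and Fbxo33 2.02-fold higher (log2 1.02, SE 0.18, limma adjusted p = 0.0305). The groups were without overlap for 6 of the 9 genes, against 3.29% of all tested genes. Otud1 (0.80, SE 0.21, limma adjusted p = 0.414) and Pnrc1 (0.25, SE 0.08, limma adjusted p = 0.937) were among them and not called. These calls depended on single libraries and on the fit. The count was 0 without bicuculline replicate 1, without NMP peptides replicate 3, in a fit restricted to these groups and without the variance trend. Leaving out bicuculline replicate 3 or NMP peptides replicate 2 left 1 call, Tiparp, and leaving out NMP peptides replicate 1 left 1, Ier2. Without bicuculline replicate 2 Otud1 was called too, and without the 4 libraries with high Gfap Ier2 and Fbxo33 were called.

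For 8 of the 9 genes, all but Ier5l, the mean over the 5 groups was highest with bicuculline and second with NMP peptides. How many of all tested genes have that order was not counted. For Ier5 the second place rests on a mean of 2.44, against 2.41 with PK-cleaved NMP peptides. The NMP peptide libraries did not overlap with the next group in rank for Ier2, Tiparp, Pnrc1 and Fbxo33. For Ier2 they did overlap with the PK-cleaved libraries (3.92 against 3.95), and for Pnrc1 the lowest was 3.83, against 3.82 in DMSO. They overlapped with the next group for Ier3, Ier5, Csrnp1 and Otud1, and none of these steps was called. The order of the 3 lowest groups differed between these genes, and no neighbours among them were called. Libraries of groups that are neighbours in rank overlapped, except that the NMP peptides plus APV libraries of Otud1 lay under the DMSO libraries and the PK-cleaved libraries of Tiparp just above them. Ier5l had its highest mean with DMSO, with means of 1.68 with bicuculline, 1.61 with NMP peptides, 1.56 with NMP peptides plus APV, 1.78 with PK-cleaved NMP peptides and 1.94 with DMSO, and every pair of neighbours in rank overlapped, with none called.

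Levels over the 14 libraries also tied the genes to one another, as a description, since the libraries share their treatments and one normalisation. Tiparp and Fbxo33 had a Pearson r of 0.982, and Ier2 and Csrnp1 of 0.964. Ier5l had r between -0.184 and 0.326 with the other 8 genes. Among all other tested genes, the 3 most like Ier2 were Gadd45b (r 0.986), Arc (0.984) and Dusp1 (0.983), and the 3 most like Fbxo33 were Plk2 (0.983), Junb (0.977) and Fosb (0.971). Tiparp was most like Plk2 (0.977), Nr4a2 (0.963) and Nr4a3 (0.963), and Otud1 most like Trib1 (0.973), Erf (0.972) and Rgs2 (0.971). Csrnp1 was most like Ccno (0.967), Fgf5 (0.967) and Egr4 (0.951), and Pnrc1 most like Btg2 (0.942), Jun (0.931) and Tob1 (0.927). Arc, Dusp1, Junb, Fosb, Egr4 and the Nr4a genes among them are known activity-regulated genes. The closest partners of Ier5 were Snx18 (0.941), Siah2 (0.913) and Mafk (0.911), those of Ier3 Cdkn1a (0.881), Atf3 (0.873) and Col5a1 (0.872), and those of Ier5l Gle1 (0.859), Rtn4ip1 (0.78) and Thg1l (0.778). Each of these r values is over all 14 libraries.

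No tested relative from the same protein families was called with bicuculline. Of 21 family relatives 19 were tested against DMSO and 0 were called by limma, where 0.469% of all tested genes were called higher, and 1, Otud6b, had an unadjusted p under 0.05. Their log2 differences ran between -0.39 and 0.20. Among the relatives of Csrnp1 and Pnrc1, Csrnp2 had -0.07 (SE 0.11), Csrnp3 -0.14 (SE 0.11) and Pnrc2 -0.15 (SE 0.12). The OTU deubiquitinases related to Otud1 had 0.02 (Otud3), -0.03 (Otud4), -0.22 (Otud6b), -0.05 (Otud7a), -0.14 (Otud7b), 0.00 (Otub1) and 0.20 (Otub2). The ADP-ribosyltransferases related to Tiparp had -0.06 (Parp1), -0.01 (Parp6), -0.12 (Parp8), -0.08 (Parp11), -0.21 (Parp12) and -0.39 (Parp16). The F-box genes had -0.20 (Fbxo30), -0.06 (Fbxo31) and -0.04 (Fbxo34). Parp14 and Fbxo32 were below the filter on low values. In the other 8 comparisons 0 of the 19 were called by limma as well, and 0 to 3 had an unadjusted p under 0.05.

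Genes of the pathways on which the products act were looked at in the same fit, bicuculline against DMSO. Of 12 genes of the AHR pathway that Tiparp restrains, 7 were tested and 0 called by limma. Ahr, at -0.35 (SE 0.16), was the only one with an unadjusted p under 0.05. Against DMSO it was also at -0.34 with NMP peptides, -0.29 with PK-cleaved NMP peptides and -0.21 with NMP peptides plus APV. For bicuculline against PK-cleaved NMP peptides Ahr had -0.06 (SE 0.14). The target genes Cyp1a1, Cyp1b1 and Nqo1 were below the filter. All 13 subunits of PP2A, the phosphatase that Ier5 and Ier3 products bind in human cells, were tested, and 0 were called by limma (-0.19 to 0.02), none with an unadjusted p under 0.05. Of 12 genes for HSF1 and its targets, 10 were tested and 1 rose, Dnajb1, an HSP40 co-chaperone. Its mean log2 value was 4.89 with bicuculline and 3.92 with DMSO, a 1.96-fold difference (log2 0.97, SE 0.14, limma adjusted p = 0.00273). Dnajb1 was also higher with bicuculline than with PK-cleaved NMP peptides (0.94, SE 0.13) and than with NMP peptides (0.75, SE 0.13). Hspa1a (0.04, SE 0.13), Hspa8 (-0.08, SE 0.10) and Hsf1 itself (0.06, SE 0.11) were not called.

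The SCF core and Ybx1, a substrate of the Fbxo33 ligase in human cells, had 6 of 7 genes tested and 0 called by limma, with Ybx1 at -0.18 (SE 0.14). All 9 genes listed for mRNA decapping and decay, since Pnrc1 binds the decapping enzyme in human cells, were tested and 0 were called (-0.21 to 0.11). Of 16 NF-κB and Keap1-Nrf2 genes 7 were tested and 0 called, with Nfkbia, the early feedback inhibitor of NF-κB, at -0.15 (SE 0.14) and Keap1 at -0.07 (SE 0.08). The rest were too low to be tested, so the 0 calls do not cover them. Of these, mean log2 values with bicuculline and DMSO were 0.51 and -0.58 for Nfkbiz and 0.07 and -0.28 for Nfkbie. Relb (0.45 and 0.26) and Icam1 (-3.93 and -4.08) were also higher. Tnfaip3 (-0.78 and -0.4), Nfkb2 (-0.56 and -0.53) and Rel (-1.52 and -1.49) were lower, and Bcl3 and Birc3 lacked values. In these last 3 lists 0 tested genes had an unadjusted p under 0.05. A single call in these lists fell elsewhere: Nfkbib was lower with NMP peptides plus APV than with PK-cleaved NMP peptides (-0.45, SE 0.10, limma adjusted p = 0.0494). Of 17 immediate-early genes listed for reference 15 were called higher with bicuculline against DMSO. Among them were Npas4 (4.33, SE 0.31), Arc (4.15, SE 0.38), Fosb (3.91, SE 0.39) and Egr4 (3.39, SE 0.37). Like the 9 genes and the other lists, this list was chosen with earlier results of these data known. Its count and median are therefore not independent of them. The median log2 difference of the 17 was 3.13. The largest difference among the 9 genes, 2.22 for Ier2, lay under that median.

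**Figure D4:**
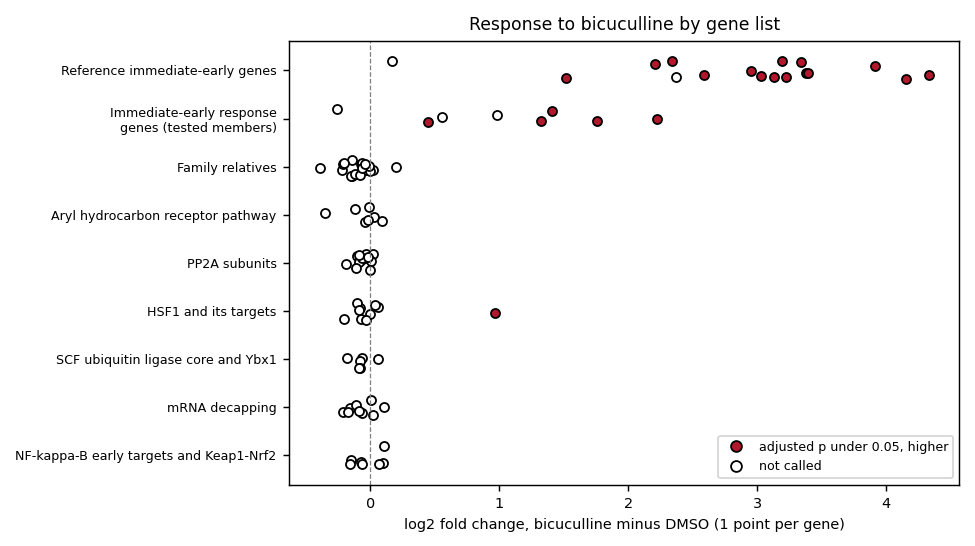
Log2 fold change of bicuculline against DMSO (x axis) for each tested gene of the 9 lists (rows, 1 point per gene), with filled points at an adjusted p under 0.05. The immediate-early response genes spread between -0.26 and 2.22, the reference immediate-early genes between 0.17 and 4.33, and the remaining lists lie within 0.4 of 0 except Dnajb1 at 0.97.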

How the data were processed

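The authors deposited 1 table of log2 signals per gene, quantile-normalised over the 14 libraries. Per the submitters' processing notes the genome was GRCm38.p6. The aligner, read counter and gene annotation were not given in the sources used here. Base 2 was checked: antilogged values times exon length in kilobases sum to 1180000 to 1270000 per library. Depth is unknown, so no counting interval is given, and quantile normalisation hides any change of total RNA.

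Features were ranked by mean and the lowest 40% dropped, leaving 10877 genes. All libraries entered one limma 3.58.1 model (R 4.3.3, variance trend) with a mean for each group, with two-sided p-values adjusted by Benjamini-Hochberg over all tested genes within each of 9 comparisons. The procedure was tested on simulated data. What the replicates share is not stated beyond the word biological, and p-values measure only how these samples vary. All 9 genes, every tested family relative, called list genes and the 3 most correlated genes are named by rule. Genes and lists were chosen with earlier results of these data known. Alternatives were no filter, dropping 60%, median centring, a replicate block, fits restricted to the compared groups, array weights, no variance trend, and leaving out each library or the 4 with the highest Gfap. Numbers were taken to pair groups where every one of 3 pairs of same-numbered libraries had deviations from the group means that correlate over 0.1. This held for NMP peptides with PK-cleaved NMP peptides (0.51, 0.499 and 0.613), from the data and not the labels. Positions and promoters are from RefSeq and overlaps from the reference annotation, both of GRCm38.p6.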

Additional observations from a re-analysis of the deposited data

How the results depend on the processing

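Of 1012 values of the 8 tested genes under an alternative, 899 kept their direction and side of the threshold. Of the rest 47 lost a call, 21 gained one, 45 changed sign without being called in either fit, and 0 called values changed sign. Csrnp1 was not among these genes. Causes were not tested. The counts below are given without the shares of all tested genes called in the same fits. For bicuculline against DMSO (5 genes called) the replicate block gave 3, and so did fitting only the compared groups. Leaving out 1 library gave 3 to 4. For bicuculline against PK-cleaved NMP peptides (5) it gave 3 to 5. For bicuculline against NMP peptides (3) the replicate block gave 1, the block with only these groups 0, only these groups 0 and no variance trend 0, and leaving out 1 library gave 0 to 4. For the peptides with and without APV (0 called) the replicate block gave 1, the block with only these groups 2, only these groups 4, array weights 4 and leaving out the 4 libraries with high Gfap 2, and leaving out 1 library gave 0 to 1. For intact against PK-cleaved peptides (0) the replicate block with only these groups gave 2, and leaving out 1 library 0. In the remaining comparisons 0 were called in every alternative. With 60% dropped only Ier2, Tiparp, Pnrc1 and Otud1 were tested, so counts under it are not over the same genes. Median centring moved no comparison's median by over 0.1. In the other comparisons of 3 pairs same-numbered libraries did not pair, so their block results rest on a number alone. Comparisons with DMSO have 2 such pairs, too few for that rule, and pairing could not be decided. Their deviations correlated by 0.542 and 0.169 for bicuculline against DMSO, where the block over all libraries did not call Otud1 and Pnrc1 and the block with only these groups called 5, with Ier3 in place of Pnrc1, by 0.305 and 0.349 for NMP peptides plus APV, and below 0 for NMP peptides and for PK-cleaved NMP peptides. Fits that keep 1 DMSO library take its spread from the remaining groups. Alternatives for linear values did not apply.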

Other observations

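Several genes had their highest value in the same library of a group, and the share of all tested genes that did so was not computed. With bicuculline, replicate 3 was the highest of its group for 5 of the 9 genes and replicate 1 for 3. With NMP peptides, replicate 1 was the highest for 6 of the 9. With PK-cleaved NMP peptides, replicate 1 was also the highest for 6, among them Ier2 at 3.95 log2 units against 3.25 and 3.26 in the other libraries of its group.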
